A study of Saccharomyces cerevisiae with 4 samples.

Results

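The large subunit of the cytosolic ribosome of the budding yeast Saccharomyces cerevisiae carries a large number of ribosomal proteins, most of them encoded by a pair of near-identical paralogs named A and B. A set of 43 such genes (RPL) was followed, of 6301 open reading frames (ORFs) on the array. The genes were chosen by systematic name, from stretches of the table where the replicate numbers agree, and with earlier results of these data known. All 43 genes matched an RPL symbol by systematic name. They make up 18 families with both paralogs and 7 families with 1 gene in the set. On all 4 arrays 33 of the 43 were measured, and 3765 of all ORFs.

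Nitrogen-poor and nitrogen-rich growth of strain S288c were compared on spotted 2-colour arrays, with reverse transcription of 2 µg of mRNA primed by oligo-dT alone. The nitrogen-rich group (SC, synthetic complete medium) was shaken at 160 rpm and 30°C up to an OD600 of 0.4. Cells of the nitrogen-poor group were moved from SC into minimal medium (MM), which had limiting ammonium sulfate (0.025%) and no added amino acids or adenine, and were harvested 12 h later. By their titles, 2 arrays carried MM in the dye Cy5 and SC in Cy3 (Cy5-MM arrays), and 2 carried the dyes the other way round (Cy5-SC arrays), with a replicate 1 and a replicate 2 of each orientation. Where 4 values of a gene are listed without labels, they are those of the Cy5-MM arrays and then of the Cy5-SC arrays, replicate 1 before replicate 2. MM differs from SC in amino acids, adenine and ammonium, in the change of medium itself and in the 12 h of incubation that followed. Growth state and cell density may also have changed over that time, so these cannot be told apart here.

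Ribosomal proteins of the large subunit fold around its ribosomal RNA, shape the tunnel through which the new chain leaves, and form the landing side for translation factors. Making them is among the largest costs of a growing yeast cell. Their genes are known to be transcribed together through the factors Rap1, Fhl1, Ifh1 and Sfp1 and to be turned down when the TOR and protein kinase A pathways sense that nitrogen or carbon is short. In many families the A and B copies encode almost the same protein and differ mainly outside the coding sequence and in their introns.

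All values are log2 ratios as deposited, read as MM over SC, so that a value under 0 means less of the transcript in MM. The dye that the channel annotations give to each medium is not the one in the titles. The direction was taken from 5 genes with an MM over SC ratio stated in the study's text, all 5 of which have the stated sign in the deposited mean, although 4 of them lie in stretches where the replicates disagree. Should the ratios run the other way, each sign given here is turned. Should the annotations and not the titles be right about the dyes, the names Cy5-MM and Cy5-SC are exchanged throughout, figures included. Along the order of systematic names the replicate numbers disagree in the runs YKL054C to YMR185W and YOR046C to YPL023C, and all 43 members lie outside them. Outside the runs the replicate means correlated across genes with r = 0.959. That value partly follows from leaving out the stretches where the replicates disagree. The lowest correlation between arrays of opposite orientation over all genes was 0.692. Blank spots, which the authors did not count as well measured, made up 5.71% to 34.6% of all ORFs per array and 6.98% to 16.3% of the members, which were measured 36 to 40 at a time. The replicate numbers are given as biological replicates, but nothing states which arrays came from separate cultures, so the p-values below cover the spread between these arrays, which may be technical.

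The large subunit genes shifted little between the media, and more of the measured members lay under 0 than above it. The mean log2 ratio ran from -0.90 (RPL36A) to 0.43 (RPL43B), with a median of -0.20 over the 33 members against -0.019 over all 3765 genes. It was under 0 in 30 members and above 0 in 3 (RPL43A, RPL42B and RPL43B). The spread among members, an interquartile range of 0.28, was narrower than the 0.74 over all genes. None of the 33 members reached a 2-fold change, against 14.1% of all genes and 15.3% of those outside the runs. In limma, with each replicate number averaged over both dye orientations (n = 2), 6 of 33 members (18.2%) fell at an adjusted p at or under 0.05, beside 17.0% of all genes. A single member (3.03%) rose, beside 16.5% of all genes. The share of members that fell was therefore close to that of the whole array, while the share that rose lay below it. At the same threshold on the unadjusted limma p, 13 members (39.4%) were lower, beside 24.8% of all genes, and the same 1 was higher, beside 23.4%. With the genes inside the runs left out of the fit, 14 members (42.4%) fell, beside 33.3% of the genes then tested, and 1 rose, beside 30.8%. On all 4 arrays 12 members (36.4%) were under 0, beside 30.5% of all genes and 34.4% of those outside the runs, and 1 (3.03%) was above 0, beside 29.1% and 32.8%.

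**Figure D1:**
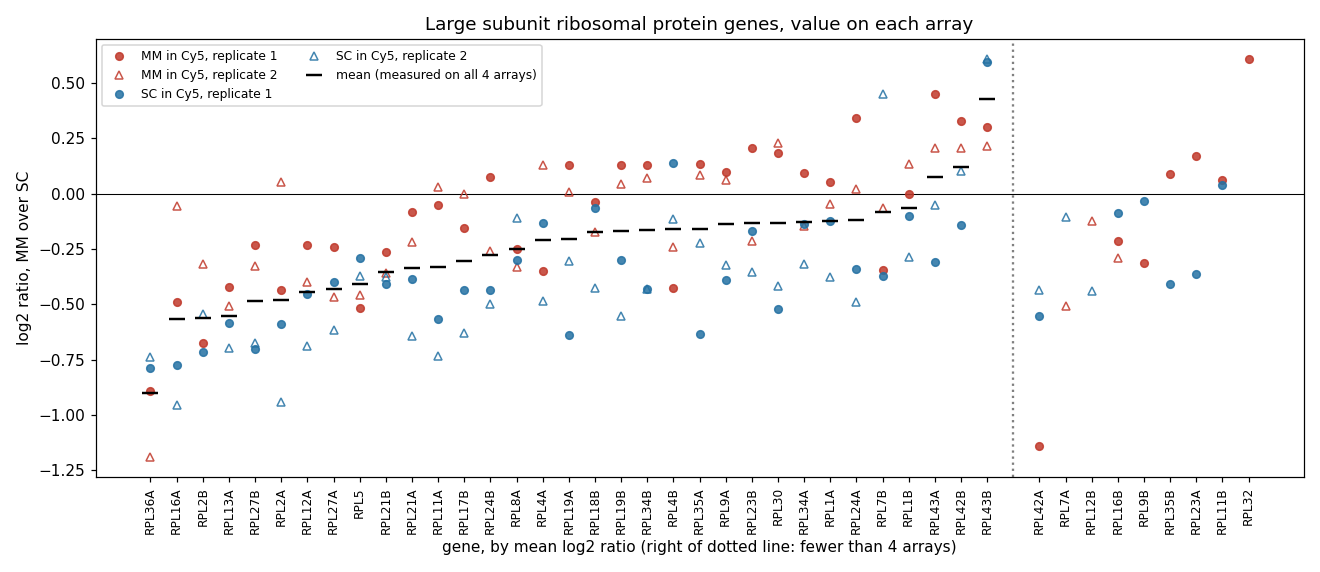
Log2 ratio of MM over SC (vertical axis) of each large subunit gene on each array, ordered by mean. Red points are Cy5-MM arrays and blue points Cy5-SC arrays, filled for replicate 1 and open for replicate 2, bars mark the mean of genes measured on all 4 arrays, and genes right of the dotted line were measured on fewer. RPL36A lies lowest at -0.90 and RPL43B highest at 0.43, and in most genes the red points lie above the blue.

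RPL36A (YMR194W), which encodes the protein eL36, was the lowest member. Its log2 ratio was -0.89 and -1.19 on the Cy5-MM arrays and -0.79 and -0.74 on the Cy5-SC arrays. All 4 arrays placed it well under 0, with a mean of -0.90 ± 0.087 (SD, n = 2; 1.87-fold lower, limma adjusted p 0.0175). It was the only called member that stayed called whichever array was left out (adjusted p 0.0207 to 0.0491). Its paralog RPL36B (YPL249C-A) had no value on any array.

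The other 5 members that fell encode proteins uL2, uL13, eL13 and eL27. RPL16A (YIL133C), for uL13, stood at -0.49 and -0.057 on the Cy5-MM arrays and at -0.77 and -0.95 on the Cy5-SC arrays, a mean of -0.57 ± 0.088 (adjusted p 0.0344). All 4 arrays lay under 0, but the orientations did not overlap and 1 array was close to no change. Without the Cy5-SC array of replicate 2 its mean was -0.34. RPL2B (YIL018W), for uL2, a conserved protein near the catalytic centre of the subunit, stood at -0.67 and -0.32 on the Cy5-MM arrays and at -0.72 and -0.54 on the Cy5-SC arrays, a mean of -0.56 ± 0.19 (adjusted p 0.0486). Its orientations overlapped, and it lost its call when each array was centred on its median (adjusted p 0.0603). RPL2A (YFR031C-A) stood at -0.44 and 0.053 on the Cy5-MM arrays and at -0.59 and -0.94 on the Cy5-SC arrays, a mean of -0.48 ± 0.049 (adjusted p 0.0417). It was the only one of the 6 with an array above 0. It lost its call with the 4 arrays taken as independent (adjusted p 0.0571), and its mean was -0.23 without the Cy5-SC array and -0.73 without the Cy5-MM array of replicate 2. RPL13A (YDL082W), for eL13, gave -0.42, -0.51, -0.59 and -0.70 a mean of -0.55 ± 0.071 (adjusted p 0.0344), and was under 0 everywhere. RPL27B (YDR471W), for eL27, gave -0.23, -0.33, -0.70 and -0.67, a mean of -0.48 ± 0.024 (adjusted p 0.0400), again under 0 everywhere with the lower values where SC was in Cy5.

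RPL43B (YJR094W-A), for the zinc-binding protein eL43, was the only member that rose. It stood at 0.30 and 0.22 on the Cy5-MM arrays and at 0.59 and 0.61 on the Cy5-SC arrays, a mean of 0.43 ± 0.024 (1.35-fold higher, adjusted p 0.0494). All 4 arrays lay above 0, the higher pair being those with SC in Cy5. Leaving out the Cy5-MM array of replicate 1 left RPL36A, RPL13A and RPL27B called (adjusted p 0.0277, 0.0403 and 0.0494), and leaving out any of the other 3 arrays left RPL36A alone. RPL16A, RPL2A, RPL2B and RPL43B lost their call without any single array, at adjusted p of 0.0515 to 0.429.

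Members were grouped by place in the ribosome for this report. The called members all belonged to the 14 measured genes that the grouping left without a named site, whose median was -0.39. These include RPL2A and RPL2B, although uL2 lies near the catalytic centre, so the lack of calls at named sites rests on the grouping. With the runs left out, 5 of the 14 members that fell had a named site (RPL5, RPL11A, RPL12A, RPL17B and RPL24B). RPL5 and RPL12A were also called with the 4 arrays taken as independent. The 2 measured members of the 5S ribonucleoprotein, a module that enters the assembling subunit as 1 unit, had no call with all genes fitted. RPL5 (YPL131W), the 5S RNA binding protein uL18, stood at -0.52 and -0.46 on the Cy5-MM arrays and at -0.29 and -0.37 on the Cy5-SC arrays, a mean of -0.41 ± 0.0081 (adjusted p 0.0526). It was under 0 on all 4 arrays with little spread between replicate means. Its partner RPL11A (YPR102C), for uL5, stood at -0.049 and 0.031 on the Cy5-MM arrays and at -0.57 and -0.74 on the Cy5-SC arrays (adjusted p 0.0790), so that nearly all of its mean of -0.33 came from 1 orientation.

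Genes for proteins of the polypeptide exit tunnel (RPL4A, RPL4B, RPL17B and RPL35A, median -0.18) were not called either. Their means ran from -0.31 for RPL17B (YJL177W) to -0.16 for RPL4B (YDR012W) and RPL35A (YDL191W), with adjusted p of 0.0896 to 0.308. On the side that binds translation factors the median was -0.14 over 3 genes. RPL12A (YEL054C), for uL11 at the base of the stalk, was the lowest of them at -0.23, -0.40, -0.45 and -0.69 (mean -0.44 ± 0.14, adjusted p 0.0624), and it was under 0 on all 4 arrays. RPL9A (YGL147C) and RPL23B (YER117W) averaged -0.14 and -0.13.

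The 5 genes grouped as bridges to the small subunit (RPL19A, RPL19B, RPL24A, RPL24B and RPL30) had a median of -0.17 and no call. Their means had a narrow range, from -0.28 to -0.12. The L1 stalk and exit site, where the spent tRNA leaves, held a pair of the highest members. RPL42B (YHR141C), for eL42, stood at 0.33 and 0.21 on the Cy5-MM arrays and at -0.14 and 0.10 on the Cy5-SC arrays, a mean of 0.12 ± 0.042 (adjusted p 0.360). RPL1B (YGL135W), for the L1 stalk protein uL1, stood at 1e-04 and 0.14 on the Cy5-MM arrays and at -0.10 and -0.29 on the Cy5-SC arrays, a mean of -0.063 ± 0.018 (adjusted p 0.610). The sign of RPL1B thus followed the orientation. Of the genes for early assembling proteins, RPL8A (YHL033C) averaged -0.25 ± 0.038 (adjusted p 0.132) and was under 0 on all 4 arrays. RPL7B (YPL198W) stood at -0.34, -0.066, -0.37 and 0.45, where only the Cy5-SC array of replicate 2 was above 0, and its mean of -0.083 had an SD of 0.39, the widest among the members.

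Members measured on fewer arrays did not enter the fit above. RPL42A (YNL162W) was at -1.14 with MM in Cy5 of replicate 1 and at -0.55 and -0.44 on the Cy5-SC arrays. In the fit that took 3 arrays as enough and as independent its mean of -0.71 was called (adjusted p 0.0244). RPL16B (YNL069C) was at -0.21 and -0.29 on the Cy5-MM arrays and at -0.085 with SC in Cy5 of replicate 1. Of the 6 genes with 2 values, RPL7A and RPL12B were measured in replicate 2 only, both with 2 values under 0, and RPL9B, RPL35B, RPL23A and RPL11B in replicate 1 only. RPL32 (YBL092W) had the single value 0.61.

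The dye swap asks whether a log2 ratio follows the medium or the dye, and the large subunit genes as a set differed between the orientations. Over the 33 members the median was -0.049 and -0.057 on the Cy5-MM arrays, and -0.39 and -0.43 on those with SC in Cy5. With MM in Cy5, 18 members were under 0 on each array, and with SC in Cy5 31 and 30 were. The median of each array over all 3765 genes lay between -0.069 and 0.022. The members were thus shifted below these medians with SC in Cy5 and lay near them with MM in Cy5. Each array had been normalized mean by mean, so medians near 0 partly follow from that step. A cause of the shift was not tested. The difference between the orientations (mean with MM in Cy5 minus mean with SC in Cy5) had a median of 0.26 over the members, 0.23 in replicate 1 and 0.29 in replicate 2, against -0.083 over all genes. With each array centred on its median these became 0.33 and -0.014. The difference was above 0 in 27 members (81.8%), beside 39.3% of genes outside the runs. Both Cy5-MM arrays lay above both with SC in Cy5 in 21 members (63.6%), beside 15.6% of all genes and 18.4% of those outside the runs. The reverse held for 4 members (12.1%; RPL36A, RPL43B, RPL4B and RPL5), beside 28.4% and 33.3%.

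**Figure D2:**
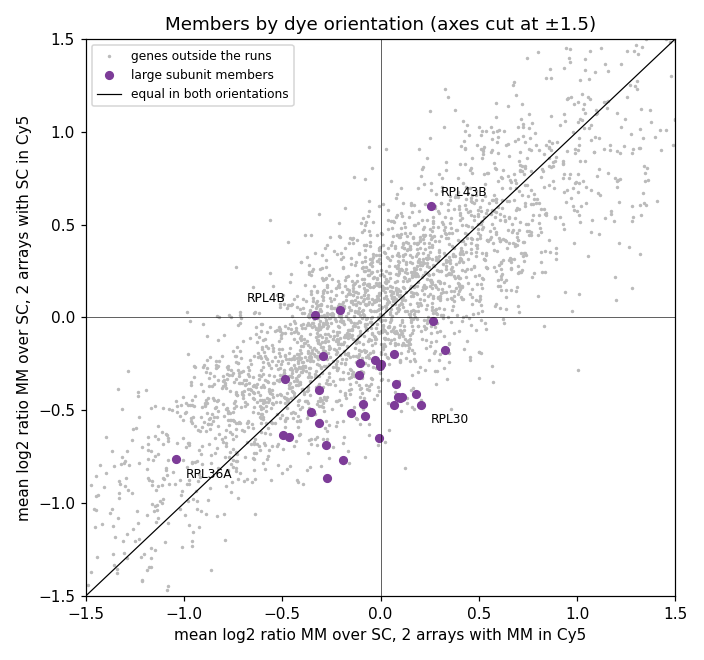
Mean log2 ratio over the 2 Cy5-MM arrays (horizontal axis) against the mean over the 2 Cy5-SC arrays (vertical axis), for the 33 large subunit members (purple) and the genes outside the runs (grey). Most members lie below the line of equal values, 27 of 33 having the higher mean with MM in Cy5.

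RPL30, RPL11A and RPL24A had the largest of these differences. RPL30 (YGL030W), whose protein eL30 also binds its own transcript and limits its splicing, stood at 0.18 and 0.23 on the Cy5-MM arrays and at -0.52 and -0.42 on the Cy5-SC arrays, a difference of 0.68. RPL24A (YGL031C), for eL24, stood at 0.34 and 0.021 against -0.34 and -0.49, a difference of 0.60, and RPL11A, given above, differed by 0.64. In all 3 the orientations did not overlap. In limma with a dye term on the 4 arrays, none of the 33 members was called (0.0266% of all genes were, 0.0668% with the runs left out; lowest adjusted p among members 0.568), while at an unadjusted p at or under 0.05 8 members (24.2%) were higher with MM in Cy5, beside 2.84% of all genes, and 0 were lower, beside 5.37%. With the replicate number as a block again no member was called (lowest adjusted p 0.155), beside 0.691% of all genes. Opposite signs in the 2 orientations, above 0 on both Cy5-MM arrays and under 0 on both with SC in Cy5, occurred in 9 members (27.3%), beside 1.62% of all genes and 2.00% outside the runs. Both Cy5-MM arrays were the higher ones in all 5 genes grouped as bridges (median difference 0.54). The same held for all 3 measured genes grouped to the L1 stalk and exit site, beside the 15.6% of all genes given above. Across the 33 members, which share arrays and are not independent, the replicate means correlated with r = 0.775 (Spearman's rho 0.677) and the orientation means with r = 0.455 (rho 0.398), against 0.959 and 0.921 over genes outside the runs. The arrays include no hybridization of an RNA against itself, so a dye effect of the spot and any other effect of the orientation cannot be told apart. The mean of both orientations cancels a dye effect that is equal in size, and the medium values above are such means.

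The A and B copies of a family could be compared on the same array in 9 families with both genes on all 4 arrays. The spots carry DNA amplified from whole ORFs, and transcripts of near-identical paralogs can bind the same spot, so the copies are not fully told apart. In these 9 families the paralogs lay close to each other. The size of the A minus B difference in mean log2 ratio ranged from 0.019 to 0.35, with a median of 0.053. Over all pairs of genes outside the runs the median was 0.63, and 30.5% of those pairs differed by no more than the largest difference among the 9 families. The members as a whole also lay close, with an interquartile range of 0.28 against 0.78 over genes outside the runs. Pairs of unrelated members were not compared. Larger sizes occurred in families with fewer arrays, such as RPL42 (0.81) and RPL7 (0.50). In 8 of the 9 families both means were under 0. The difference kept its sign on all 4 arrays in 1 of 9 families, beside 70.1% of all pairs of genes. Smaller differences change sign more easily, so this count is not separate from the small sizes. With 2 replicates an exact permutation test of a single difference cannot fall under 0.05, so each difference is given with its SD.

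Among these 9 families RPL43 had the largest difference. RPL43A (YPR043W) stood at 0.45 and 0.21 on the Cy5-MM arrays and at -0.31 and -0.049 on the Cy5-SC arrays, a mean of 0.076 ± 0.0054 (adjusted p 0.544), where RPL43B was above 0 throughout. The A minus B difference was 0.15 and -0.0087 on the Cy5-MM arrays and -0.90 and -0.66 on the Cy5-SC arrays, a mean of -0.35 ± 0.029. The copies were thus alike where MM was in Cy5 and apart where SC was. RPL24 was the family with the same sign on all arrays, RPL24A lying above RPL24B (YGR148C) by 0.26, 0.28, 0.095 and 0.010, a mean of 0.16 ± 0.024. RPL24B itself stood at 0.078, -0.26, -0.44 and -0.50 (mean -0.28, adjusted p 0.141). RPL43 and RPL24 were the 2 families whose difference exceeded 2 SD of the replicates. That SD does not cover the spread between the orientations.

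In RPL2 both copies fell, and their difference of 0.24, 0.37, 0.13 and -0.40 averaged 0.085 ± 0.14, within the replicate spread. In RPL27 only the B copy passed the threshold, but RPL27A (YHR010W) stood at -0.24, -0.47, -0.40 and -0.62 (mean -0.43 ± 0.16, adjusted p 0.0692). The RPL27 difference of 0.053 ± 0.13 was within the spread, so the copies are not shown to differ. RPL1A (YPL220W), at 0.054, -0.044, -0.12 and -0.38, differed from RPL1B by -0.059 ± 0.11. The smallest differences among the 9 families were those of RPL21 (0.019 ± 0.12), RPL19 (-0.032 ± 0.20) and RPL34 (0.038 ± 0.13). RPL21A (YBR191W) stood at -0.083, -0.22, -0.39 and -0.65, and RPL21B (YPL079W) at -0.27, -0.36, -0.41 and -0.38, both under 0 throughout and neither called (adjusted p 0.102 and 0.0696). RPL19A (YBR084C-A) stood at 0.13, 0.0066, -0.64 and -0.30 and RPL19B (YBL027W) at 0.13, 0.044, -0.30 and -0.55. RPL34A (YER056C-A) stood at 0.092, -0.15, -0.14 and -0.32 and RPL34B (YIL052C) at 0.13, 0.072, -0.43 and -0.43. In these last 4 genes both Cy5-SC arrays were the lower ones, except that the arrays of RPL34A overlapped between the orientations.

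**Figure D3:**
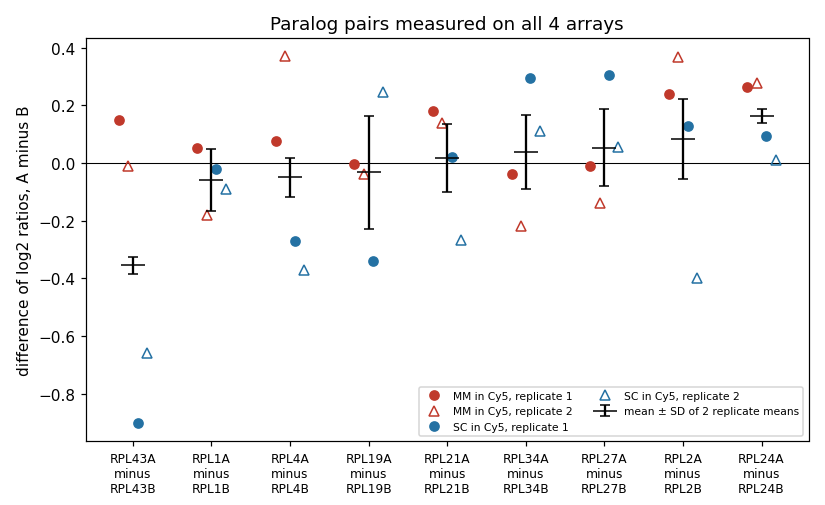
Difference in log2 ratio between the A and the B copy (vertical axis) on each array for the 9 families with both copies on all 4 arrays, with the mean and the SD of the 2 replicate means in black. RPL43 lies lowest with a mean of -0.35, RPL24 is the only family with all 4 points on the same side of 0, and the other 7 means lie within 0.085 of 0.

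A further 8 families had both copies on fewer arrays. RPL42A lay below RPL42B on all 3 arrays that measured both, by -1.47 with MM in Cy5 of replicate 1 and by -0.41 and -0.54 on the Cy5-SC arrays. RPL7A lay below RPL7B by -0.44 and -0.56 and RPL12A below RPL12B by -0.28 and -0.25 in replicate 2. RPL11A lay below RPL11B by -0.11 and -0.61 in replicate 1. In RPL16 the difference was -0.28 and 0.23 on the Cy5-MM arrays and -0.69 on the Cy5-SC arrays of replicate 1, so its sign was not stable. In replicate 1, RPL9A minus RPL9B was 0.41 and -0.36 and RPL35A minus RPL35B was 0.045 and -0.23, each with a sign that turned with the orientation, and RPL23A minus RPL23B was -0.035 and -0.20. These rest on 2 or 3 arrays, and where a single replicate number measured both copies there is no replicate check.

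Some members neighbour other ribosomal protein genes. RPL24A and RPL30 are transcribed away from each other, with no other protein-coding gene of the reference table between them. Both were above 0 with MM in Cy5 and under 0 with SC in Cy5. RPL13A is transcribed away from RPS16B, a small subunit gene, which stood at -0.021 and 0.23 on the Cy5-MM arrays and at -0.40 and -0.61 on the Cy5-SC arrays, whereas RPL13A was under 0 on all 4. On its other side lies RPP1A, for an acidic protein of the stalk, which stood at 0.37, 0.14, 0.037 and -0.13, above RPL13A on every array.

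Other ribosomal gene lists outside the runs were set beside the members. Of 28 genes of the small subunit (RPS) measured on all 4 arrays 7 fell (25.0%, beside 17.0% of all genes) and 0 rose, with a median of -0.32 and a median orientation difference of 0.38. With the runs left out 15 fell and 2 rose, beside 33.3% and 30.8% of the genes then tested. Both Cy5-MM arrays lay above both with SC in Cy5 in 82.1% of them. RPS6A, for the classical phosphorylated protein of the small subunit downstream of TOR, fell most at -0.72 ± 0.066 (adjusted p 0.0230), with its paralog RPS6B at -0.63 ± 0.0089 (adjusted p 0.0261). The SD of RPS6B does not cover its spread between the orientations, with -0.43 and -0.49 on the Cy5-MM arrays and -0.82 and -0.78 on the Cy5-SC arrays. Without the Cy5-MM array of replicate 2 none of the RPS genes was called, and without either Cy5-SC array only RPS2 and RPS6A were. Of 16 other large subunit genes (RPL and RPP), RPL28 fell to -0.52 ± 0.074 (adjusted p 0.0388) and RPL41A rose by 0.61 ± 0.23 (adjusted p 0.0499), with a median of 0.037, an orientation difference of 0.31 and 68.8% with both Cy5-MM arrays higher. The 1 that fell and the 1 that rose stand beside 17.0% and 16.5% of all genes. With the runs left out 2 fell and 2 rose, beside the same 33.3% and 30.8%. RPL41A stood at 1.25, 0.48, -0.36 and 1.06, so that 1 array had the opposite sign, and its mean was 0.20 without the Cy5-MM array and 1.01 without the Cy5-SC array of replicate 1. RPL28 lost its call without any single array, and RPL41A kept it only without the Cy5-SC array of replicate 1.

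Mitochondrial large subunit genes (MRPL), which are under separate control, did not show the same offset. Of 17 measured, 4 rose (beside 16.5% of all genes) and 1 fell (5.88%, beside 17.0%). With the runs left out 9 rose and 3 fell, beside 30.8% and 33.3% of the genes then tested. The median of the 17 was 0.27, and their orientation difference had a median of 0.016. MRPL19 rose most, by 1.58 ± 0.52 (adjusted p 0.0261), at 1.12 and 1.23 on the Cy5-MM arrays and 2.78 and 1.20 on the Cy5-SC arrays. MRPL10 fell to -0.87 ± 0.18 (adjusted p 0.0239). No test compared these lists with the members, and they share the same arrays. Of the MRPL genes that rose, MRPL51 alone stayed called without the Cy5-MM array of replicate 1, and MRPL19 alone without that of replicate 2. Both stayed called without either Cy5-SC array, but no MRPL gene that rose kept its call whichever array was left out.

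**Figure D4:**
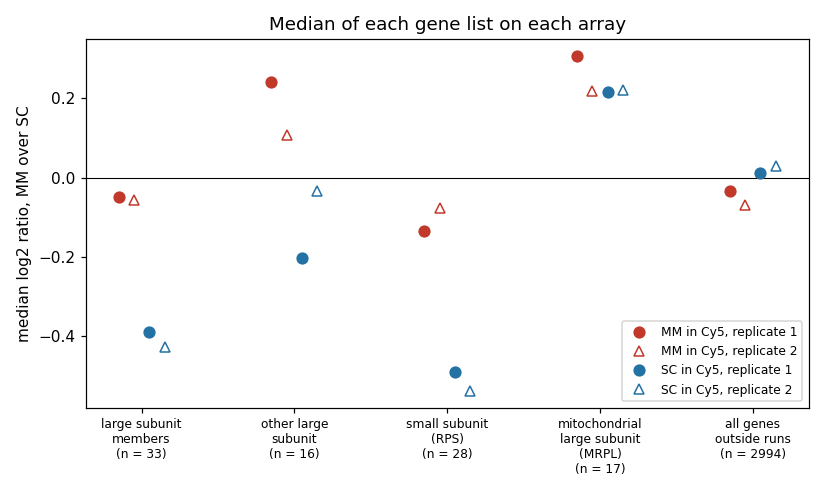
Median log2 ratio of MM over SC (vertical axis) of each gene list on each array, for genes outside the runs with values on all 4 arrays. In the cytosolic lists the Cy5-MM arrays (red) lie above those with SC in Cy5 (blue), by a median of 0.26 per gene in the members and 0.38 in the small subunit genes, whereas the mitochondrial genes had 0.016.

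Of 5 measured regulators of ribosomal protein genes 2 rose (beside 16.5% of all genes) and 0 fell (beside 17.0%). A mean under 0 was seen in 3 of the 5, and the median over the 5 was -0.071. CRF1, the corepressor that takes the place of Ifh1 on Fhl1 when TOR is inactive, stood at 0.94 and 1.18 on the Cy5-MM arrays and at 1.29 and 1.27 on the Cy5-SC arrays, a mean of 1.17 ± 0.076 (adjusted p 0.0131). TOR1, for a TOR kinase, stood at 0.60, 0.75, 0.77 and 0.77, a mean of 0.72 ± 0.053 (adjusted p 0.0227). All arrays of both genes were above 0, and CRF1 stayed called whichever array was left out, while TOR1 lost its call without the Cy5-MM array of replicate 2. HMO1, for a high mobility group protein found at ribosomal protein promoters, averaged -0.43 ± 0.070 (adjusted p 0.0526). It fell with the runs left out (adjusted p 0.000945), as did 33.3% of the genes then tested. In that fit limma shrinks all genes to 1 common variance, so the p reflects the size of the mean and not the spread of HMO1. RAP1 and FHL1 were measured in replicate 1 only, RAP1 at 1.20 and 0.99 and FHL1 at -0.18 and -0.17.

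Dedicated chaperones and assembly factors of large subunit proteins had a median of -0.35 over 11 genes. Of these 3 fell (27.3%, beside 17.0% of all genes) and 1 rose (beside 16.5%). With the runs left out 6 fell and 2 rose, beside 33.3% and 30.8% of the genes then tested. SQT1, the chaperone of Rpl10, stood at -1.25, -1.05, -0.82 and -1.21, a mean of -1.08 ± 0.070 (adjusted p 0.0140). ARX1, an export factor that sits at the tunnel exit of the precursor particle, fell to -0.78 ± 0.058 (adjusted p 0.0200), and NMD3, the export adaptor, to -0.70 ± 0.0056 (adjusted p 0.0227). NMD3 stood at -0.83 and -1.09 on the Cy5-MM arrays and at -0.56 and -0.33 on the Cy5-SC arrays. Its small SD, taken over replicate means, does not cover this spread between arrays. TIF6, which binds beside Rpl23 and keeps the subunits apart, rose by 0.49 ± 0.090 (adjusted p 0.0443). SQT1 and ARX1 stayed called whichever array was left out, NMD3 in all but the fit without the Cy5-MM array of replicate 2, and TIF6 only without the Cy5-MM array of replicate 1. Their median orientation difference was -0.040, unlike the 0.26 of the ribosomal proteins they serve, though that contrast was not tested.

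Of 4 measured methyltransferases that modify large subunit proteins 3 fell (75%, beside 17.0% of all genes) and 0 rose (beside 16.5%). With the runs left out all 4 fell, beside 33.3% of the genes then tested. RKM4, which methylates Rpl42, stood at -1.53 and -1.64 on the Cy5-MM arrays and at -1.22 and -2.19 on the Cy5-SC arrays, a mean of -1.65 ± 0.38 (adjusted p 0.0179). HPM1, which methylates a histidine of Rpl3, fell to -0.65 ± 0.058 (adjusted p 0.0261), and RKM1, which acts on Rpl23, to -0.55 ± 0.13 (adjusted p 0.0411). RKM4 was called in every fit without a single array, HPM1 in all but the fit without the Cy5-MM array of replicate 2, and RKM1 only without the Cy5-SC array of replicate 1.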

How the data were processed

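From total RNA of yeast grown in SC or MM, mRNA was reverse transcribed from oligo-dT at 42°C for 2 h, and the cDNA was labelled with Cy5 or Cy3 and hybridized to spotted ORF arrays. The authors scanned the arrays, subtracted background, normalized each array mean by mean over well measured spots (foreground over 3 SD of the background pixels) and deposited 1 log2 ratio per ORF and array. Software versions and the genome build are not given in the sources used here. The number of arrays limits the precision, and no spot intensities were used. Names came from the RefSeq table of assembly R64, and the order of its protein-coding genes gave the neighbours. No sequence is shown.

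Arrays sharing a replicate number were averaged over the dye swap (n = 2), and genes with values on all 4 arrays were tested against 0 with lmFit and eBayes (limma 3.58.1, R 4.3.3), two-sided, with Benjamini-Hochberg adjustment over 3765 genes and a threshold of 0.05. For the dye, limma was fitted to the 4 single arrays with the mean and the orientation as terms. The methods' program (BAGEL) was not used. Scripts were tested on simulated data.

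The members, the lists and the tests were chosen with earlier results of these data known; single-array omissions for the lists and for the sign of every member were added afterwards. Lists are described by counts and medians only. Full values are given for the 5 lowest and 5 highest members, called members, both genes of the 5 largest and 3 smallest paralog differences where 4 arrays measured them, and the 3 largest orientation differences. Of each other list at most 3 called genes by size were to be named; RPL28, RPL41A, TIF6, MRPL10, the values of RPL5, RPL12A, RPL8A, RPL27A, HMO1, RAP1 and FHL1 and the neighbours were added after their values were seen.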

Additional observations from a re-analysis of the deposited data

Results flagged for a closer look

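In 9 members the log2 ratio was above 0 on both arrays with MM in Cy5 and under 0 on both with SC in Cy5, although all 4 arrays compare the same media. The difference between the orientations was 0.68 in RPL30, 0.60 in RPL24A, 0.54 in RPL19A, 0.54 in RPL35A, 0.53 in RPL34B, 0.51 in RPL19B, 0.51 in RPL43A, 0.44 in RPL9A and 0.26 in RPL1B. These genes were picked for those signs, so the direction in each replicate follows from the choice. None passed the test of the dye term in limma, with an adjusted p of 0.568 in 8 of them and 0.650 in RPL1B. Unadjusted p ran from 0.0106 (RPL30) to 0.197 (RPL1B). The medium means of these 9 genes average values of opposite sign.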

How the results depend on the processing

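With n = 2 the number of called members follows the estimate of the spread. Beside the 6 members that fell, 14 did with the genes inside the runs left out (where limma shrinks all genes to 1 common variance), 10 of 35 when 3 arrays sufficed and arrays counted as independent, 9 with 4 independent arrays, 13 at an unadjusted p, 5 with centred arrays, and 0 without moderation (8 at an unadjusted p of the same test). The member that rose was kept except without moderation (0). Over all genes 1263 were called, 1920 with the runs left out, 1979 with the block and 0 without moderation. Leaving out single arrays gave 1 to 3 members that fell and 0 that rose, a median log2 ratio of -0.31 to -0.14 and a median orientation difference of 0.22 to 0.37. These fits leave a replicate number with a single dye orientation. They turned the sign of 6 of the 33 members, none of them called: RPL35A, RPL30 and RPL24A (at most 0.032, 0.044 and 0.053), and RPL7B, RPL1B and RPL43A, over ranges of -0.21 to 0.047 for RPL7B, -0.17 to 0.043 for RPL1B and -0.11 to 0.27 for RPL43A. Centring moved the median to -0.19 and the orientation difference to 0.33. The same sign of the paralog difference was seen in 4 and 3 of 9 families within replicates 1 and 2 alone, and in 7 and 6 with MM and SC in Cy5 alone.

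A random replicate block without a dye term, added after the data were seen, gave 12 members that fell and 1 that rose, at an estimated correlation of -0.24. The planned block with a dye term was not run to a value, since limma estimated no correlation for 4 arrays. With the replicate number as a fixed block 0 members were called for the dye, and the median orientation difference stayed at 0.26. Deviations of arrays with the same number correlated with 0.706 over all genes, 0.0445 outside the runs and -0.029 over the members, so the numbers are not shown to pair arrays there. The SDs over replicate means and the calls for the medium rest on that pairing. Of the 77 settings of the 11 members followed singly, single-array omissions aside, 67 left direction and call as they were and 10 lost the call. Except for the centring, these settings use the same mean of a gene, so its direction could not change. An unadjusted p cannot lose a call, and RPL7B, RPL1B, RPL43A and RPL42B had none to lose. The count is therefore not a measure of how robust the calls are.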
